A study of Homo sapiens with 2 samples.

Results

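Matrix metalloproteinases (MMPs), ADAMs, ADAMTS and ADAMTSL proteins, and their inhibitors, the TIMPs and RECK, were read in RNA-seq gene counts of H460, a cell line from a human large-cell lung carcinoma. Members were the protein-coding Ensembl genes in the count tables whose symbol is that of an MMP, ADAM, ADAMTS, ADAMTSL or TIMP gene or RECK, and 53 of 22965 listed genes met this rule (13 MMP, 14 ADAM, 16 ADAMTS, 5 ADAMTSL and 4 TIMP genes and RECK). The PKP2 library came from cells in which the vector pSin-puro delivered PKP2, the gene of the desmosomal protein plakophilin 2, and the vector library from H460 cells labelled vector. Each group was 1 library of cells at passage 5, grown in DMEM with serum, and whether a culture was a pool or a clone is not given in the sources used here. The study asked which genes lie downstream of PKP2.

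MMPs are secreted or membrane-bound proteases that cut collagens, gelatin and other matrix proteins, and they are made as inactive precursors. ADAMs sit in the cell membrane, where those with an active site release the outer parts of growth factors, adhesion molecules and receptors, and ADAMTS enzymes are secreted proteases of proteoglycans, procollagens and von Willebrand factor. ADAMTSL proteins resemble the ADAMTS tail but lack a protease domain. TIMPs are secreted inhibitors that block MMPs and some ADAM and ADAMTS enzymes, and RECK is an inhibitor anchored at the cell surface. In lung and other cancers these families are known for their part in invasion and in the release of EGFR ligands.

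The catalytic members share a zinc-binding signature in which histidines hold the zinc ion of the active site. It was looked for in the coding sequence of each gene's principal transcript in GENCODE release 29 (GRCh38), with glycine or asparagine allowed between the second and the last zinc-binding histidine. It was present in 38 of the 53 members, namely all 13 MMPs, 10 of 14 ADAMs and 15 of 16 ADAMTS genes. It was not matched in ADAM11, ADAM22, ADAM23, ADAM32, ADAMTS8, the ADAMTSL and TIMP genes or RECK, and a missing match says only that this pattern is not in that transcript. All 13 MMP signatures and 9 of the 10 ADAM signatures lie within 1 exon, while those of ADAM10 and of all 15 matched ADAMTS genes are split over 2 exons. The coding bases are shown for some of the members named below, as 33 bases 5′ to 3′ with the codons of the zinc-binding histidines in capitals. Coordinates are GRCh38, and for ADAM10, ADAMTS1 and ADAMTS6 they span the intron between the 2 exons.
ADAM10 (chr15:58627881-58633225, minus strand): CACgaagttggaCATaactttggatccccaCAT
ADAM17 (chr2:9510078-9510110, minus strand): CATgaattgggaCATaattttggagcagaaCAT
ADAM15 (chr1:155056995-155057027, plus strand): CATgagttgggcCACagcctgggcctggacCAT
ADAM12 (chr10:126094059-126094091, minus strand): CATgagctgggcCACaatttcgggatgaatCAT
ADAMTS1 (chr21:26841143-26841867, minus strand): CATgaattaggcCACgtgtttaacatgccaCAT
ADAMTS6 (chr5:65300116-65329394, minus strand): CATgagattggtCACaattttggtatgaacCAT
MMP2 (chr16:55491827-55491859, plus strand): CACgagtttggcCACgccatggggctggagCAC
MMP15 (chr16:58040563-58040595, plus strand): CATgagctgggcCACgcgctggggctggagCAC
MMP17 (chr12:131841659-131841691, plus strand): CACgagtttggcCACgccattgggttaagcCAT
MMP24 (chr20:35263817-35263849, plus strand): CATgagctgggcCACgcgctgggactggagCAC

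The PKP2 library held 20319137 counts and the vector library 23513304. PKP2 itself had 1330 counts (66.0 CPM, counts scaled to library size) in the PKP2 library, against 181 counts (7.63 CPM) in the vector library, in the direction of the labels. With 1 library per group there is no replicate check and no p-value. Differences are given as log2 ratios of CPM, PKP2 over vector, with 95% intervals that cover counting error only, and a gene is called at least 2-fold different only where its mean over both libraries is 10 or more counts. Of the 5 epithelial markers 4 were listed, and CDH1 was not. KRT19 was 2-fold or more higher in PKP2 cells (11645 and 6501 counts, 1.08). KRT8 (9369 and 16537 counts, -0.58) and KRT18 (3795 and 5954 counts, -0.41) were lower, and EPCAM had only 16 and 28 counts. Of the marker genes of other cell types, 4 of 6 fibroblast genes were listed (summed level 30.3 CPM in the PKP2 library and 52.3 CPM in the vector library), 2 of 5 leukocyte genes (21.6 and 19.1 CPM) and 2 of 4 endothelial genes (0 and 0.169 CPM). Listed markers included COL3A1 (333 and 973 counts), PDGFRB (208 and 111 counts), CD68 (412 and 362 counts) and CD14 (23 and 90 counts). Their part in the results was not tested.

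H460 cells carried mainly ADAM and TIMP transcripts, and few from secreted MMP genes. ADAM genes held 71.95% of the members' counts in the PKP2 library and 69.6% in the vector library, and TIMP genes 15.0% and 15.8%. Per length, as CPM per kilobase of the principal transcript, TIMP1 was the highest member in both libraries (200.1 in the PKP2 library and 191.7 in the vector library). ADAM9 (94.2 in the PKP2 library and 65.6 in the vector library) and ADAM15 (62.8 and 75.8) took the next places, and in the other order in the vector library. ADAM17 (34.9 and 28.8) and ADAM23 (26.7 and 26.4) followed in both. Of the MMPs the membrane-type genes summed to 16.6 CPM per kilobase in the PKP2 library and 18.7 in the vector library, and the 7 other MMP genes to 0.769 and 2.09.

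**Figure D1:**
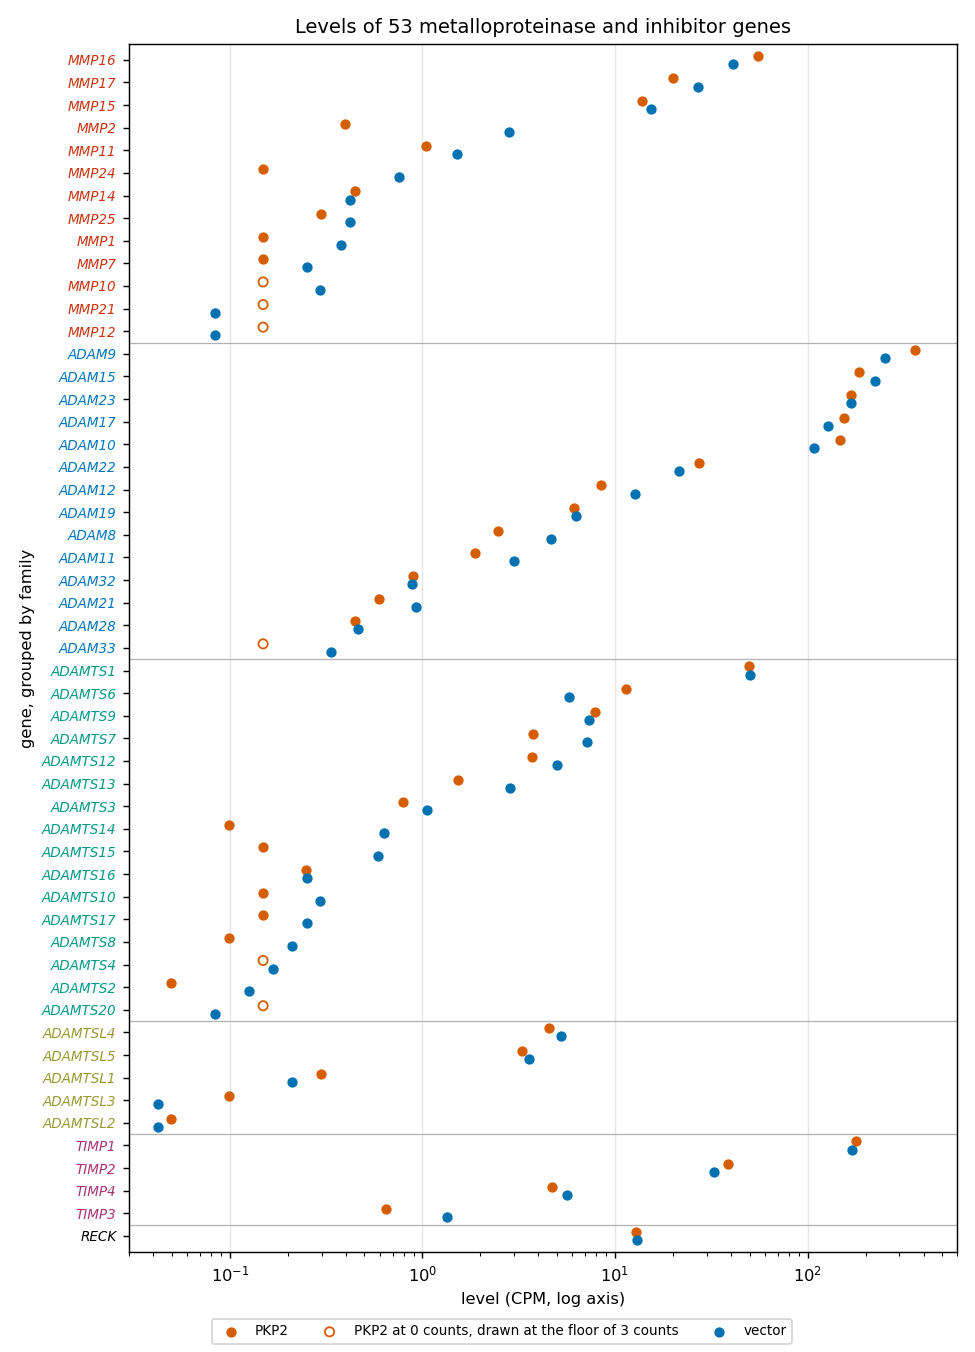
Level of each of the 53 genes in CPM (log axis) in the PKP2 library (orange) and the vector library (blue), by family and in order of mean count, with open circles for the 6 genes at 0 counts in the PKP2 library, drawn at the floor of 3 counts. The ADAM genes reach 361.8 CPM, and the lower rows of most families hold genes below 1 CPM.

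**Figure D2:**
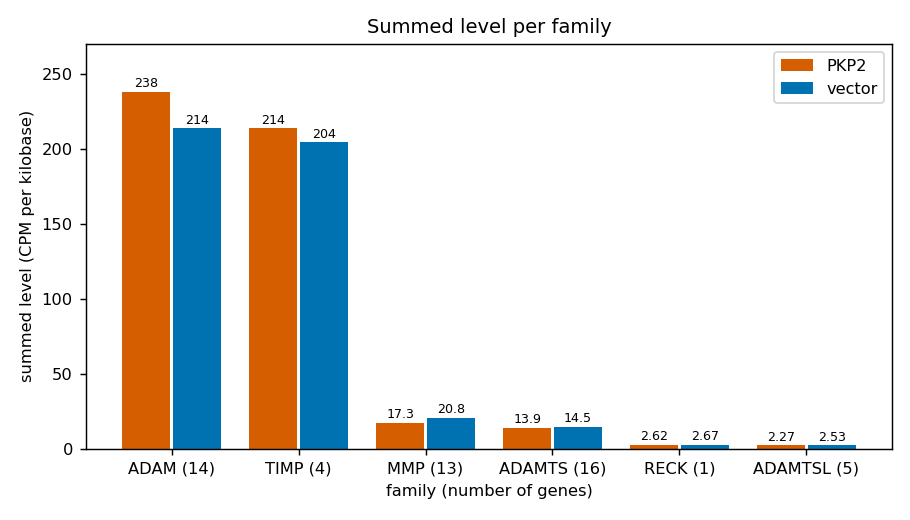
Level summed over each family, in CPM per kilobase of transcript, in the PKP2 library (left bars) and the vector library (right bars), with the number of genes in brackets; there are no replicates and no error bars. ADAM and TIMP genes stand at 204 to 238, and each other family stays under 21.

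Few of these genes differed 2-fold between the libraries. Of the 53 members 33 averaged 10 or more counts over the libraries, and 3 of them passed it with under 10 counts in the PKP2 library (MMP2, MMP24 and ADAM28), all of them through their counts in the vector library. Among the 33, none was 2-fold or more higher in PKP2 cells, where 2.46% of the 15991 genes tested were, and 3 were 2-fold or more lower (MMP2, MMP24 and TIMP3), where 4.61% of all genes were. The 3 had under 40 counts on average, and 2-fold calls were commoner there among all genes: 12.1% were called lower and 5.37% higher in the range of 10 to under 100 counts, against 1.8% lower and 1.37% higher from 100 counts upward. The 33 members had a median log2 ratio of -0.16, beside -0.03 over all genes tested, with 11 above 0 and 22 below. The counting interval lay above 0 for 7 members and below 0 for 10 (25.9% and 28.8% of all genes), and it held 0 for 16. In a bulk library fewer cells of a type and less RNA per cell cannot be told apart.

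The 20 members that averaged 100 or more counts had a median log2 ratio of -0.00, with 10 above 0 and 10 below, and ran from -0.92 (ADAMTS7) to 0.98 (ADAMTS6). Relative to genes of like GC content and length, the same 20 had a median of 0.12, with 14 above 0 and 6 below. By that measure 50.3% of all genes averaging 100 or more counts were below 0 (median -0.00). Of the 13 in the range of 10 to under 100 counts, 12 were below 0 (median -0.64), where 59.9% of all genes in that range were below 0 (median -0.15). Relative to genes of like GC content and length 12 of the 13 were also below 0 (median -0.43), where 54.8% of all genes in that range were (median -0.07). These 13 include the 3 that passed only through the vector library, and the intervals of 7 of them held 0. Under the minimum, 16 of the 20 members had the lower CPM in the PKP2 library, beside 50.1% of the 6974 listed genes under it. The 20 together had 49 counts in the PKP2 library, against 123 in the vector library. This is by plain CPM, and the 20 had a median GC content of 56.0%. Relative to genes of like GC content and length, with counts of 0 set to the floor, they lay on both sides of 0. The contrast is therefore not read as a result about the members. Summed counts of all 53 gave a log2 ratio of 0.15 (interval 0.13 to 0.17), since the sum rests on the abundant ADAM genes.

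**Figure D3:**
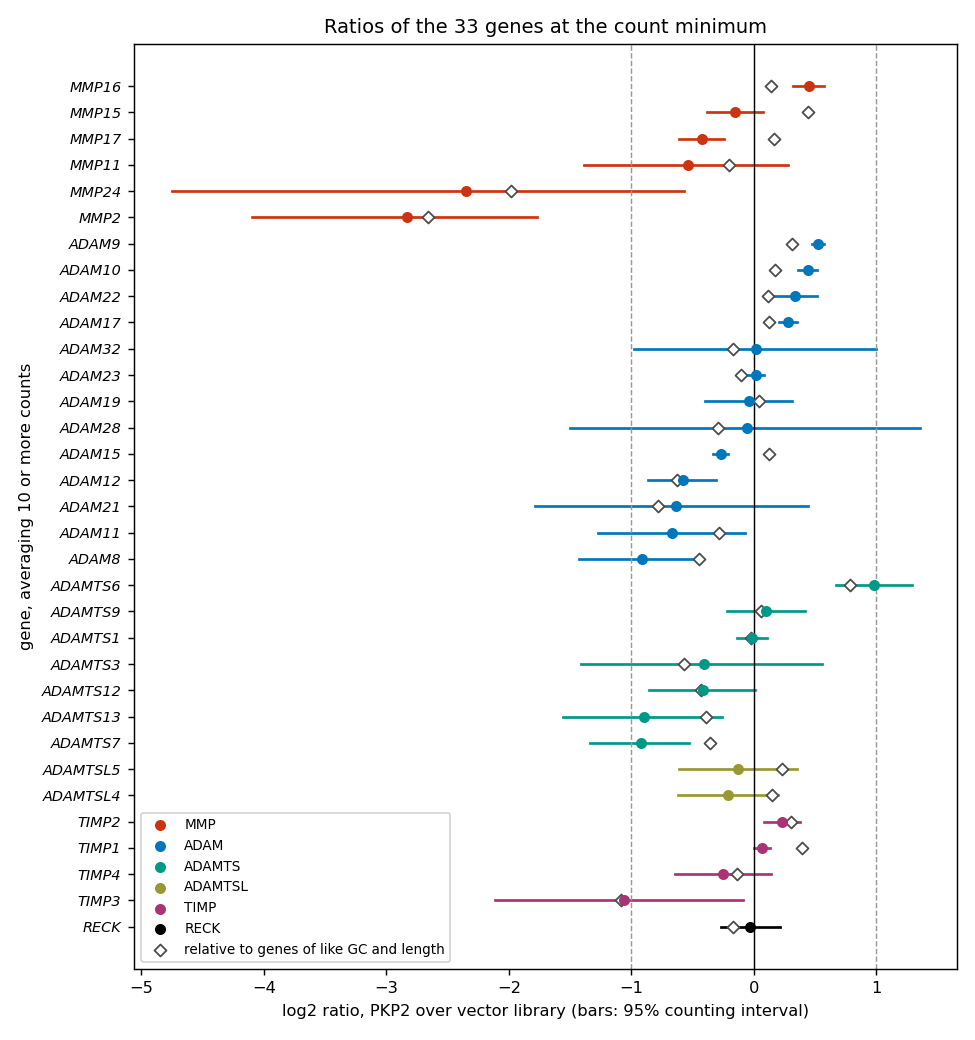
Log2 ratio of CPM, PKP2 over vector, for the 33 genes averaging 10 or more counts, by family (filled circles, with bars for the 95% counting interval), and the same ratio relative to 100 genes of like GC content and length (open diamonds); dashed lines mark 2-fold. MMP2, MMP24 and TIMP3 lie past the lower line by both measures, and no gene lies past the upper line.

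Of the secreted MMPs only MMP2 and MMP11 reached the count minimum, and MMP2 was lower in the PKP2 library beyond counting error. MMP2, or gelatinase A, which degrades gelatin and type IV collagen, had 8 counts (0.397 CPM) in the PKP2 library, against 67 counts (2.82 CPM) in the vector library, a log2 ratio of -2.83 (interval -4.10 to -1.77). An unnamed gene that overlaps it on the same strand had 1 count in each library. MMP11, stromelysin 3, had 21 counts in the PKP2 library and 36 in the vector library, at -0.54 with an interval (-1.39 to 0.27) that takes in 0. MMP11 overlaps CHCHD10 on the opposite strand, which had 455 and 1211 counts (-1.18), and the use of strand in counting is not given in the sources used here.

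The other secreted MMP genes were near the limit of detection. On chromosome 11 the collagenase MMP1 had 3 counts in the PKP2 library, against 9 in the vector library, the matrilysin MMP7 had 3 against 6, the stromelysin MMP10 had 0 against 7, and the macrophage elastase MMP12 had 0 against 2. None of these reached the count minimum, and the intervals of MMP1, MMP7 and MMP12 held 0. MMP21, on chromosome 10, had 0 and 2 counts. No fold is given for MMP12 and MMP21, which were at or under the floor of 3 counts in both libraries. MMP3, MMP9 and MMP13 were not analysed here.

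Promoters of MMPs such as these are known for binding sites of AP-1, a factor built of FOS and JUN proteins. Promoter windows from 250 bases before to 50 bases after the RefSeq start (GRCh38.p14) were searched for 36 members, and the AP-1 motif TGANTCA, which reads the same on both strands, was in 3 of them (MMP7, MMP10 and ADAMTS12), or 8.33%, beside 7.71% of all 35116 windows of that length. Members whose promoter was not searched, MMP genes among them, may hold the motif too. The windows of MMP7 and MMP10 are shown as the searched MMP windows that hold the motif, which is in capitals. It begins 67 bases before the start in each.
MMP7 (chr11:102530698-102530997, minus strand): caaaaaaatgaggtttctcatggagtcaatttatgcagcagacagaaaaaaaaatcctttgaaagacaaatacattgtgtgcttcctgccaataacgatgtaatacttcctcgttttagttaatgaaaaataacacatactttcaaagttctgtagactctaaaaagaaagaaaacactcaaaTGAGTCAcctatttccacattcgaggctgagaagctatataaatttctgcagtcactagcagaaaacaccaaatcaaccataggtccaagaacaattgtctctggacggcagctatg
MMP10 (chr11:102780579-102780878, minus strand): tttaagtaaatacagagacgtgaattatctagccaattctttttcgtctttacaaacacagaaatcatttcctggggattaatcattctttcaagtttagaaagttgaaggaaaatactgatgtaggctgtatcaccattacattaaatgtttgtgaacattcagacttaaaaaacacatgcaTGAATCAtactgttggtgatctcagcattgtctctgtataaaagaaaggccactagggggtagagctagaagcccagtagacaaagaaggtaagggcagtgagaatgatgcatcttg
A match describes the letters and does not show that a factor binds there. Of 11 AP-1 and ETS factor genes, all averaging 10 or more counts, 10 were within 2-fold and 1 was lower by more (median -0.21). Over all genes tested the median was -0.03 and 4.61% were at least 2-fold lower. Among all genes averaging 100 or more counts 1.8% were. The lower gene was JUND, with 450 counts in the PKP2 library and 1250 in the vector library (-1.24, interval -1.40 to -1.08), and -0.59 relative to genes of like GC content and length. JUN had 294 and 452 counts (-0.38) and FOSL1 440 and 582 (-0.17). ETV4 (2201 and 2992 counts, -0.21) and JUNB (839 and 1233 counts, -0.32) had the most counts of this list. Relative to genes of like GC content and length the median of the 11 was -0.04. By that measure JUN was at -0.21, FOSL1 at 0.08, ETV4 at 0.07 and JUNB at 0.13.

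The membrane-type MMPs, which are held in the cell membrane and cut matrix at the cell surface, were the MMPs with the most counts. MMP16 had 1119 counts (55.6 CPM) in the PKP2 library, against 967 (40.8 CPM) in the vector library, a log2 ratio of 0.45 (interval 0.32 to 0.57). MMP17, which is tied to the membrane by a lipid anchor, had 402 counts (19.96 CPM) against 637 (26.8 CPM), at -0.43 (interval -0.61 to -0.25). MMP15 had 278 counts against 365, at -0.16 (interval -0.39 to 0.07). By these plain ratios MMP16 was higher and MMP17 lower beyond counting error, and the interval of MMP15 held 0. Relative to genes of like GC content and length MMP16 was at 0.14, MMP17 at 0.16 and MMP15 at 0.44, so that MMP17 turned and all 3 were above 0.

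MMP24 had 3 counts in the PKP2 library, against 18 in the vector library, a log2 ratio of -2.35 (interval -4.75 to -0.57). Its mean of 10.5 counts is just over the minimum, and 19.98% of its 31-base stretches occur in another listed gene. MMP24 overlaps MMP24OS on the opposite strand, which had 102 and 297 counts (-1.31, interval -1.64 to -0.98), and an unnamed gene on that strand, which had 36 and 46 counts (-0.12, interval -0.79 to 0.54). Because the use of strand is not given, reads of these overlapping genes cannot be told apart, and the summed ratio was -1.35 with MMP24OS and -0.48 with the unnamed gene. MMP14, the membrane-type enzyme that activates the MMP2 precursor together with TIMP2, had only 9 counts in the PKP2 library and 10 in the vector library. MMP25 had 6 and 10 counts, overlaps MMP25-AS1 on the opposite strand (80 and 140 counts) and shares 29.9% of its 31-base stretches with other listed genes, so its counts are less certain.

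Of the 9 ADAMs with the signature that reached the count minimum, the interval lay above 0 for 3 (ADAM9, ADAM10 and ADAM17), below 0 for 3 (ADAM8, ADAM12 and ADAM15) and held 0 for 3. ADAM10, which cuts Notch receptors, cadherins and several EGFR ligands, had 2959 counts (146.9 CPM) in the PKP2 library, against 2572 (108.4 CPM) in the vector library, a log2 ratio of 0.44 (interval 0.36 to 0.52). ADAM17, the TNF-converting enzyme, had 3103 counts (154.1 CPM) against 3019 (127.2 CPM), at 0.28 (interval 0.20 to 0.35). ADAM9 had 7286 counts (361.8 CPM) against 5971 (251.7 CPM), at 0.52 (interval 0.47 to 0.57). Set against the 100 best-matched genes in GC content and length these ratios were 0.17 for ADAM10, 0.12 for ADAM17 and 0.31 for ADAM9. Exons of ADAM17 overlap those of IAH1 on the opposite strand (542 and 611 counts, 0.06).

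ADAM15, whose disintegrin domain binds integrins, had 3730 counts (185.2 CPM) in the PKP2 library, against 5300 (223.4 CPM) in the vector library, at -0.27 (interval -0.33 to -0.21), but 0.12 relative to genes of like GC content and length. ADAM12, which cuts insulin-like growth factor binding proteins, had 170 counts against 300, at -0.58 (interval -0.86 to -0.31), and -0.63 relative to such genes. ADAM8, best known from leukocytes, had 50 counts against 111, at -0.91 (interval -1.43 to -0.42). For ADAM12 the relative ratio was about as large as the plain one, and for ADAM8 it was -0.45.

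ADAM19, which cuts neuregulins, had 123 counts in the PKP2 library and 149 in the vector library (-0.04, interval -0.40 to 0.31). It overlaps CYFIP2 on the opposite strand, which had far more counts (1305 and 1381, 0.15). ADAM21 (12 and 22 counts) and ADAM28 (9 and 11 counts) also had intervals that held 0, and ADAM21 shares 41.0% of its 31-base stretches with other listed genes. ADAM33 had 0 counts in the PKP2 library and 8 in the vector library and did not reach the minimum.

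Of the ADAMs in which the signature was not matched, ADAM11, ADAM22 and ADAM23 are known for roles in adhesion rather than as proteases. ADAM23, a neuronal receptor of LGI proteins, had 3401 counts (168.9 CPM) in the PKP2 library, against 3969 (167.3 CPM) in the vector library, at 0.01 (interval -0.05 to 0.08). Its relative ADAM22 had 550 counts against 513, at 0.34 (interval 0.16 to 0.51). ADAM11, of the same subgroup, had 38 counts against 71, at -0.67 (interval -1.27 to -0.08), and ADAM32 had 18 against 21. Against genes of like GC content and length ADAM22 was at 0.11 and ADAM11 at -0.28. By the plain ratios ADAM22 was higher and ADAM11 lower beyond counting error, and ADAM23 lay within 0.08 of no difference. The summed level of the 4 genes was 199 CPM in the PKP2 library and 192.8 CPM in the vector library, beside 866 and 736 CPM for the 10 ADAMs with the signature.

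Among ADAMTS genes the versican- and aggrecan-cutting enzyme ADAMTS1 was the most abundant and hardly differed, with 1002 counts (49.8 CPM) in the PKP2 library and 1193 (50.3 CPM) in the vector library, at -0.02 (interval -0.14 to 0.11). ADAMTS6, which acts on fibrillin microfibrils, was the member with the highest ratio at the count minimum. It had 229 counts (11.4 CPM) in the PKP2 library, against 137 (5.77 CPM) in the vector library, at 0.98 (interval 0.67 to 1.29), just inside 2-fold, and 0.79 relative to genes of like GC content and length. ADAMTS9, another versican-cutting enzyme, had 158 counts against 174, at 0.10 with an interval (-0.22 to 0.42) that held 0.

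The other ADAMTS genes at the minimum were all below 0. ADAMTS7, an enzyme of cartilage oligomeric matrix protein, had 76 counts in the PKP2 library, against 170 in the vector library, at -0.92 (interval -1.33 to -0.53), and shares 23.8% of its 31-base stretches with other listed genes. ADAMTS13, which cuts von Willebrand factor, had 31 counts against 68, at -0.90 (interval -1.56 to -0.26). Relative to genes of like GC content and length these were -0.36 for ADAMTS7 and -0.39 for ADAMTS13. ADAMTS12 (75 and 118 counts, -0.42) and the procollagen enzyme ADAMTS3 (16 and 25 counts, -0.41) had intervals that held 0.

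Below the minimum, ADAMTS14, a procollagen enzyme, had 2 counts in the PKP2 library and 15 in the vector library, and ADAMTS15 had 3 and 14. These were the largest gaps among the 9 ADAMTS genes under the minimum, none of which had more than 5 counts in the PKP2 library. ADAMTS4 (0 and 4 counts) and ADAMTS20 (0 and 2 counts) were at 0 in the PKP2 library.

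Of the ADAMTSL genes, ADAMTSL4, which binds fibrillin in the eye's zonule, had 91 counts in the PKP2 library and 124 in the vector library, at -0.21 (interval -0.62 to 0.19). ADAMTSL5 had 66 and 85 counts, at -0.13 (interval -0.61 to 0.35). Both differences were within counting error, and ADAMTSL1, ADAMTSL2 and ADAMTSL3 had at most 6 counts in either library.

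Of the inhibitors, TIMP1 and TIMP2 carried nearly all the counts and TIMP3 stood apart. TIMP1 had 3595 counts (178.5 CPM) in the PKP2 library, against 4056 (171.0 CPM) in the vector library, at 0.06 (interval -0.00 to 0.13). TIMP2 had 775 counts (38.5 CPM) against 778 (32.8 CPM), at 0.23 (interval 0.09 to 0.38). TIMP3, which binds to the matrix and also inhibits ADAM17 and several ADAMTS enzymes, had 13 counts (0.646 CPM) against 32 (1.35 CPM), at -1.06 (interval -2.12 to -0.09). Relative to genes of like GC content and length they were at 0.39 for TIMP1, 0.30 for TIMP2 and -1.08 for TIMP3.

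TIMP4 had 95 counts in the PKP2 library and 133 in the vector library, at -0.25 (interval -0.64 to 0.14). RECK had 258 counts (12.8 CPM) in the PKP2 library and 310 (13.1 CPM) in the vector library, at -0.03 (interval -0.27 to 0.21). Both intervals held 0. Summed over the 4 TIMP genes the level was 222.4 CPM in the PKP2 library and 210.7 CPM in the vector library, a log2 ratio of 0.08 (interval 0.02 to 0.14).

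The ratios of these genes followed the GC content of their transcripts, as those of all genes did. Across the 33 members Spearman's rho between the ratio and GC content was -0.63, beside -0.53 across 15893 genes with a transcript; genes of 1 pair of libraries are not independent, and no p is given. Of the 17 members with a GC content up to 48.7%, 9 were above 0 (median 0.01), and of the 16 with more GC, 2 were above 0 (median -0.35). ADAM9, ADAM10, ADAM22 and MMP16, all higher, had 36.4% to 39.7% GC, while ADAM8, ADAMTS7, ADAMTS13 and MMP17, all lower, had 63.8% to 68.7%. ADAM28 (38.2% GC, -0.05) and MMP15 (66.0% GC, -0.16) lay in the same GC ranges, with intervals that held 0. Set against the 100 best-matched well-counted genes in GC content and length, the median over the 33 members was -0.11, 15 were above 0 and 18 below, and rho with GC content was -0.05.

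By that relative measure MMP2 (-2.66), MMP24 (-1.98) and TIMP3 (-1.08) were again at least 2-fold lower, where 3.47% of 15893 genes were, and no member was at least 2-fold higher, where 2.44% were. MMP17 was at 0.16, MMP15 at 0.44 and ADAM15 at 0.12, on the other side of 0 from their plain ratios. ADAM23 (-0.11), ADAM19 (0.04), ADAM32 (-0.17), ADAMTSL4 (0.15) and ADAMTSL5 (0.23) also turned, all from plain ratios within counting error of 0.

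**Figure D4:**
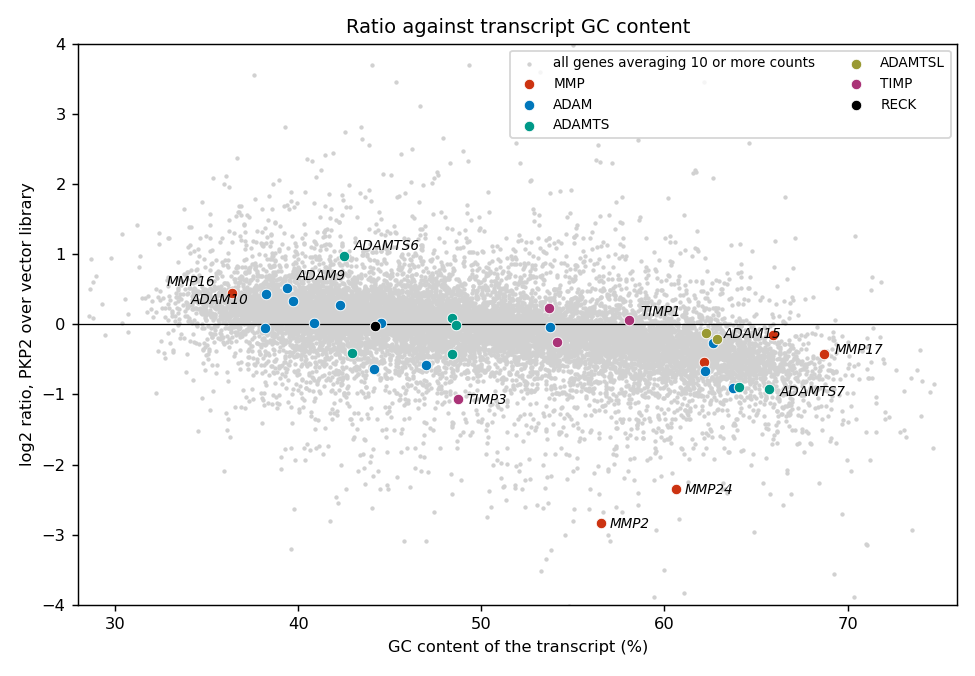
Log2 ratio, PKP2 over vector, against transcript GC content for the 33 members (coloured by family) and all other genes averaging 10 or more counts (grey); 28 of the 15991 tested genes lie beyond 4 on either side, outside the axis. The members slope down with GC content along with the grey cloud, and MMP2, MMP24 and TIMP3 are the lowest members. Of all genes tested, 4.61% are also at least 2-fold lower.

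Genes that act on or with these proteases were counted list by list, beside the 2.46% of all genes tested that were at least 2-fold higher and the 4.61% that were at least 2-fold lower. Among 10 listed genes of the proprotein convertases and the plasminogen system, which activate metalloproteinase precursors, 1 was at least 2-fold higher and 9 within 2-fold (median 0.40). The higher gene was PLAT, tissue plasminogen activator, with 460 counts in the PKP2 library and 188 in the vector library (1.53, interval 1.28 to 1.78). The protease inhibitors SERPINB2 (13387 and 13067 counts, 0.27) and SERPINE2 (9944 and 8177 counts, 0.52) had the most counts. FURIN, which removes the prodomain of ADAMs and membrane-type MMPs, had 1164 and 1056 counts (0.38, interval 0.26 to 0.50).

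Of 10 regulators of ADAM10 and ADAM17 traffic, 1 was at least 2-fold higher and 9 within 2-fold (median -0.03). This was TSPAN10, with only 15 counts in the PKP2 library and 5 in the vector library. TSPAN10 passed the minimum only through its counts in the PKP2 library. In the range of 10 to under 100 counts 5.37% of all genes were at least 2-fold higher. Of the other tetraspanin partners of ADAM10, TSPAN5 (170 and 125 counts, 0.68), TSPAN14 (765 and 588 counts, 0.62) and TSPAN17 (1188 and 999 counts, 0.49) were higher beyond counting error, TSPAN15 was lower (186 and 285 counts, -0.38), and the interval of TSPAN33 (169 and 214 counts, -0.10) held 0. The iRhom genes RHBDF1 (343 and 605 counts, -0.58) and RHBDF2 (575 and 869 counts, -0.36), partners of ADAM17, were lower, as was PACS2 (563 and 997 counts, -0.59), and the interval of FRMD8 (327 and 372 counts, 0.05) held 0. Relative to genes of like GC content and length RHBDF1 was at -0.19, RHBDF2 at -0.02, PACS2 at -0.04 and TSPAN15 at -0.14, and TSPAN5, TSPAN14 and TSPAN17 were at 0.59 to 0.72.

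Of 7 listed genes for other inhibitors, inducers and clearance, 1 was at least 2-fold lower and 6 were within 2-fold. Their median was -0.37, and -0.11 relative to genes of like GC content and length. The lower gene was PAPLN, the papilin gene, with 8 counts in the PKP2 library and 29 in the vector library (-1.62, interval -2.96 to -0.46). PAPLN passed the minimum only through the vector library. In the range of 10 to under 100 counts 12.1% of all genes were at least 2-fold lower. The proteoglycan gene SPOCK1 had 13598 and 8529 counts (0.91, interval 0.87 to 0.95), and BSG, the MMP inducer basigin, 6815 and 8214 (-0.03). Relative to genes of like GC content and length SPOCK1 was at 0.76 and BSG at 0.34. Of 16 listed transmembrane substrates of ADAMs, the 14 at the count minimum were all within 2-fold (median 0.05). TNF and CX3CL1 were under the minimum, and CDH1, CDH2 and ERBB4 were not listed. NOTCH3 (7191 and 12646 counts, -0.58) and APP (8984 and 9794 counts, 0.11) had the most counts. Relative to genes of like GC content and length NOTCH3 was at -0.15 and APP at 0.05.

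Of 12 matrix substrates and partners of ADAMTS proteins at the count minimum 4 were at least 2-fold lower, none was at least 2-fold higher and 8 were within 2-fold (median -0.48). Set against genes of like GC content and length the median was -0.11, and COL1A1, at -0.87, was inside 2-fold. VCAN, the versican gene, had 137 counts in the PKP2 library and 413 in the vector library (-1.36, interval -1.64 to -1.07). COL3A1 was at -1.31, COL1A1 at -1.22 (48 and 132 counts) and THBS1 at -1.81 (7 and 29 counts). THBS1 passed the minimum only through its counts in the vector library. THBS1 and COL1A1 averaged 10 to under 100 counts, where 12.1% of all genes were at least 2-fold lower. From 100 counts upward, where VCAN and COL3A1 lie, 1.8% were. The fibrillin gene FBN1, with 1087 and 1022 counts (0.33), and LTBP4, with 753 and 1164 (-0.39), had the most counts. By the relative measure FBN1 was at 0.29 and LTBP4 at 0.20. COL1A1 and COL3A1 are also on the fibroblast marker list.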

How the data were processed

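Per the labels' protocols, the H460 RNA was extracted with Trizol and prepared with a TruSeq kit of Illumina, and the submitters' processing notes name Bowtie 0.12.2, GRCh37 and hg19. How reads were counted, on which annotation and with which strand setting is not given in the sources used here. Per the file headers, the files hold raw counts for Ensembl IDs; the authors deposited them as whole numbers but for 1 damaged row with a decimal, so their unit is recorded as estimated counts. In each file 2 rows with no readable count were left out, and no listed gene is at 0 in both libraries.

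Counts were scaled by totals times edgeR TMM factors (edgeR 4.0.16, R 4.3.3) with no pseudocount. Intervals are exact binomial (Clopper-Pearson, 95%) and floors are 3 counts (0.149 CPM in the PKP2 and 0.126 CPM in the vector library); both cover counting error only. The quasi-likelihood test of edgeR needs replicates and could not be run. Symbols were found for 22579 IDs. GENCODE release 29, used by gene ID because its build differs, gave gene type, GC content, length, exon overlaps and shared 31-base stretches; the principal (APPRIS) transcript was used where marked, otherwise the longest. The 100 nearest genes in GC content and log2 length came from 11590 with a mean of at least 100 counts. Alternatives were other scalings (DESeq2 1.42.0 among them), pseudocounts, filters and thresholds.

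Members and gene lists were chosen with earlier results of these data known. Named with values were PKP2, the TIMP genes, RECK, members with a mean of at least 100 counts, and members with at least 10 that were 2-fold different or whose interval left out 0; other members and genes were added after their values were seen. From each list, genes 2-fold different and the 2 with most counts were named. Ratios and intervals were tested on simulated counts. Biopython 1.88, matplotlib 3.10.9, SciPy 1.17.1, pandas 2.3.3 and NumPy 2.4.6 ran under Python 3.11.15.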

Additional observations from a re-analysis of the deposited data

How the results depend on the processing

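The count of members called higher in PKP2 cells was 0 by the main measure and under all scalings, pseudocounts, the correction for GC content and length and the 3-fold threshold. It was 1 with no count filter (ADAMTSL3, with 2 counts and 1 count) and 1 at a 1.5-fold threshold (ADAMTS6). The count of members at least 2-fold lower was 3, and it was 1 with 1 CPM added, 0 with 5 CPM added, 8 with no count filter, 0 at a mean of at least 50 counts and 8 at a 1.5-fold threshold. The lower calls thus rest on genes of low level. Shares of all genes under the changed pseudocounts, filters and thresholds are not given here. These counts are therefore not set against all genes and are not read as a result about the members. The median log2 ratio stayed between -0.25 (no count filter) and -0.03 (mean of at least 50 counts), below 0 under every alternative run. The median over all genes was itself -0.03 by the main measure, and it is not given here for the alternatives. From 100 counts upward the median was -0.00 both for the members and for all genes. The sign of the members' median is therefore not read as a result about them. Of 26 named members, 11 moved outside their counting interval relative to genes of like GC content and length, and 6 changed sign; scaling by totals turned 1 sign and upper-quartile scaling 1. No paired analysis was possible because each group has 1 library, and leaving out a library was not possible.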
